A study of Mus musculus with 4 samples.

Results

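The regions described here are ATAC-seq regions that lie in the olfactory and vomeronasal receptor gene clusters of mouse thymocytes. ATAC-seq marks open chromatin through a transposase that inserts sequencing adapters into accessible DNA. Peaks of 4 deposited lists on chromosomes 1 to 19 and X that overlapped by 1 bp or more were joined into regions. A region was kept when, of all protein-coding gene ends (mm10, RefSeq), the one closest to its midpoint lay within 100 kb and belonged to a gene whose symbol starts with Olfr or Vmn. This gave 1355 regions of 107607 in all. The rule used gene names and positions, not peak strength or the lists that hold a region.

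The groups were 2 samples of DP thymocytes (CD4+CD8+ double positive cells) and 2 samples of DN thymocytes (CD4-CD8- double negative cells, CD25+ and CD44-/+). All came from the thymus of C57BL/6J mice aged 5 to 7 weeks, labelled WT, and were sorted ex vivo. Whether the samples of 1 group are separate animals is not labelled, and their spread may therefore be technical. The lists give positions and the authors' p-values without read counts. Depth is therefore unknown, and closed chromatin and too few reads at an unlisted site cannot be told apart. In these bulk samples, fewer cells of a type and less signal per cell cannot be told apart either.

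Olfactory receptor genes (Olfr) encode the odorant receptors of the nose, and each olfactory sensory neuron is known to express 1 allele of 1 such gene. Vomeronasal receptor genes of the Vmn1r and Vmn2r families encode pheromone receptors of the vomeronasal organ. Both kinds sit in large tandem arrays on many chromosomes, and thymocytes are not known for expressing them.

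No receptor promoter window lay in a peak of all 4 lists, and 3 windows are printed because the results below turn on them. Each runs from 250 bases before to 50 after a RefSeq transcript start (GRCm38.p6, the build that mm10 names), and is given 5′ to 3′ on the gene's strand. Capitals mark the motif match named with each window below, whose letters are spelled out with the promoter results (the E-box is left unmarked).
Vmn2r29: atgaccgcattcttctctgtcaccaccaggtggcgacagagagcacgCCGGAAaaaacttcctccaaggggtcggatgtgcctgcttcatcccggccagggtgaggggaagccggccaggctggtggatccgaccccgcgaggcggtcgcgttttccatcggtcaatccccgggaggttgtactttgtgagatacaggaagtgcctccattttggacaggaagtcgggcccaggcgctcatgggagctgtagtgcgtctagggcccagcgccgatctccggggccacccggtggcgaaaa
Olfr781: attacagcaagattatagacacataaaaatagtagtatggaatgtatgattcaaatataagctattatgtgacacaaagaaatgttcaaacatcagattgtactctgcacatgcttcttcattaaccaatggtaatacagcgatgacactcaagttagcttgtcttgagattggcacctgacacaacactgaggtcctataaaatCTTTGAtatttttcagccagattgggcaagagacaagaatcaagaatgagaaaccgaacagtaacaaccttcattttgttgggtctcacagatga
Olfr530: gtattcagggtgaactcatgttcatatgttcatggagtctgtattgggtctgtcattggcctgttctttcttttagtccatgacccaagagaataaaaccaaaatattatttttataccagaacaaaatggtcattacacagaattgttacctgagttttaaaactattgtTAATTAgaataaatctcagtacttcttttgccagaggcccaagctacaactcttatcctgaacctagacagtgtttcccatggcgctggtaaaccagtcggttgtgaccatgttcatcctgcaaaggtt
The Vmn2r29 window (chr7:7278240-7278539, minus strand) was overlapped by peaks of DP 1, DP 2 and DN 2, more lists than any other receptor window. Its GC content was 62.3%, with 23 CpG dinucleotides and 1 ETS match. The Olfr781 window (chr10:129332633-129332932, plus strand) was the only one overlapped by peaks of both DN lists and of neither DP list. Its GC content was 35.7%, with 2 CpG dinucleotides and 1 TCF match. The Olfr530 window (chr7:140373559-140373858, minus strand) lay in no peak, but it ends beside the best ranked region held by both DP lists and neither DN list. It had a GC content of 38.3% and 1 LHX match.

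The DP 2 list was longer than the others, and the DN 2 list held few peaks at T cell genes. The lists held 39696 and 70365 peaks on these chromosomes for DP 1 and DP 2, and 38794 and 33118 for DN 1 and DN 2. At 8 marker genes of the DP stage, among them Cd4, Cd8a, Cd8b1 and Rag1, there were 45 and 51 peaks for DP 1 and DP 2, against 13 and 12 for DN 1 and DN 2. At 8 markers of CD25-positive DN cells there were 33 and 43 peaks in DP and 25 and 6 in DN lists, so these markers did not set the DN lists above the DP lists. Il2ra, which encodes CD25, had 9 peaks in each DP list and 8 and 2 in the DN lists. In DN 2, Ptcra, Notch1, Notch3, Hes1 and Dtx1 had 0 peaks. At 7 pan-T genes there were 45 and 42 peaks in DP 1 and DP 2 and 11 and 3 in DN 1 and DN 2, so both DN lists were lower there. At 6 markers of olfactory sensory neurons (Omp, Gnal, Adcy3, Cnga2, Stoml3 and Rtp1) there were 3 and 7 peaks in DP and 4 and 3 in DN lists. Lists of B cell, myeloid, NK cell, erythroid and stromal markers held 2 to 25 peaks each in the DP lists and 1 to 15 in the DN lists. The NK cell list held the most of these, 17 and 25 in the DP lists and 15 and 12 in the DN lists. Its gene Klrb1c alone had 10 and 13 in the DP lists and 11 and 8 in the DN lists.

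Receptor clusters took a smaller share of the peaks in DP lists than in DN lists. Of each 10000 peaks, 45.6 and 79.4 lay in these regions in DP 1 and DP 2, and 111 and 156 in DN 1 and DN 2. Both DN values lay above both DP values. The mean was 62.5 ± 23.9 in DP and 133 ± 31.8 in DN lists (SD, n = 2 each), a ratio of 0.469 and a difference of -70.8 (exact two-sided permutation p = 0.333, the smallest that 3 splits allow). As raw numbers the groups overlapped, with 181 and 559 peaks in the DP lists and 430 and 516 in the DN lists. The difference was -53.7 without DP 1, -87.7 without DP 2, -93.3 without DN 1 and -48.3 without DN 2.

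The clusters were also sparser in peaks than the surroundings of other genes, and by less in the DN lists. The territory of receptor genes, meaning every position whose nearest protein-coding gene end is a receptor's and within 100 kb, measured 51.2 Mb, or 3.10% of the 1648 Mb around protein-coding genes. It held 0.552 and 1.14% of the peaks in the larger territory for DP 1 and DP 2, and 1.55 and 2.65% for DN 1 and DN 2. As densities, receptor territory had 3.54 and 10.9 peaks per Mb in the DP lists and 8.40 and 10.1 in the DN lists. The territory of other genes had 20.4 and 30.3 peaks per Mb in the DP lists and 17.1 and 11.9 in the DN lists. The ratio of the densities was 0.173 and 0.361 in the DP lists and 0.491 and 0.849 in the DN lists, so DN 2 came nearest to even coverage. Peaks farther than 100 kb from any protein-coding gene end, which are not members, made up 17.3 and 30.6% of the DP lists and 28.4 and 41.2% of the DN lists. These shares overlapped between stages, and their part in the receptor clusters' result was not tested.

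**Figure D1:**
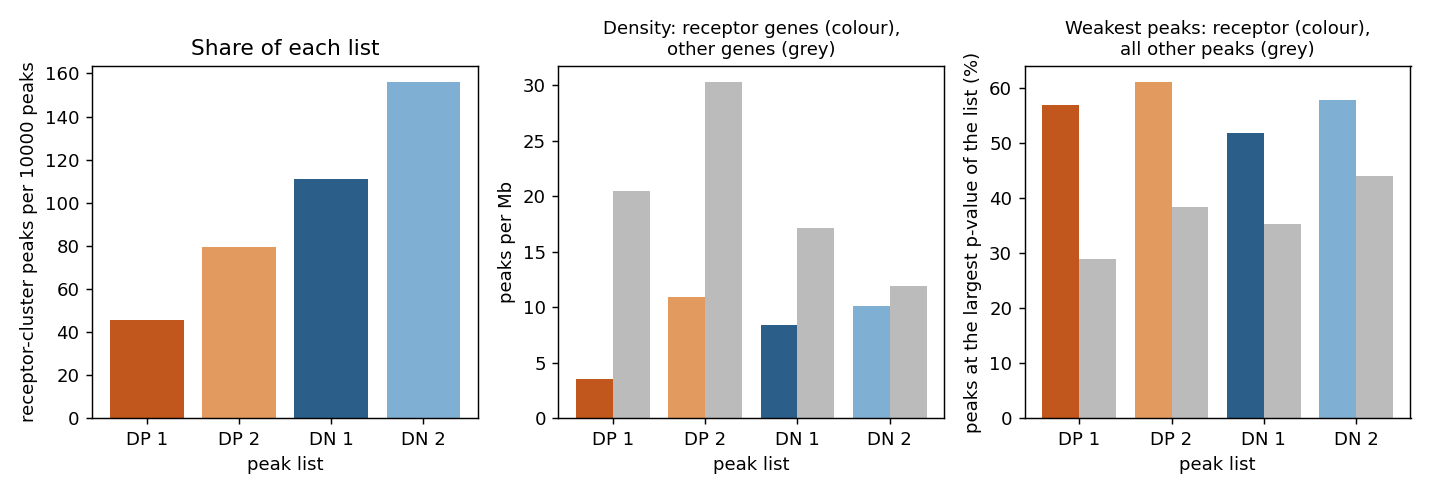
Bars give, for each peak list, the receptor-cluster peaks per 10000 peaks (left), the peaks per Mb in the territory of receptor genes and of other genes (middle) and the percent of peaks at the list's largest p-value among receptor-cluster peaks and all other peaks (right). Receptor-cluster peaks number 45.6 and 79.4 per 10000 in the DP lists and 111 and 156 in the DN lists, and are sparser and more often among the weakest peaks than others in each list.

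Most receptor-cluster peaks were weak by the authors' own p-value, which is the value used to rank peaks within a list. The largest p-value of a list is shared by many tied peaks. It was held by 56.9 and 61.0% of receptor-cluster peaks in DP 1 and DP 2, against 29.0 and 38.3% of the other peaks of these lists. In DN 1 and DN 2 it was held by 51.9 and 57.8%, against 35.3 and 44.0% of the others. At the other end, the smallest p-value of its list was reached by 2 and 1 receptor-cluster peaks in the DP lists and by 5 and 1 in the DN lists (1e-12). These are 1.10 and 0.179% of receptor-cluster peaks in DP 1 and DP 2, against 6.38 and 4.44% of all peaks. In DN 1 and DN 2 they are 1.16 and 0.194%, against 3.54 and 2.17%. The median width was 350 bp in each list, against 450 and 400 bp over all peaks in DP 1 and DP 2 and 400 and 350 bp in DN 1 and DN 2.

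Few of these regions recurred between lists. Of the 1355 regions, 1227 (90.6%) came from a single list, against 71.8% over all regions of the series. These single-list regions numbered 115 in DP 1, 435 in DP 2, 302 in DN 1 and 375 in DN 2. The 2 DP lists shared 46 of these regions, which is 27.1% of those in DP 1 and 8.85% of those in DP 2. Over all regions the corresponding shares were 63.7 and 35.6%. The 2 DN lists shared 71 regions, or 18.02% of those in DN 1 and 15.1% of those in DN 2, against 35.2 and 40.9% over all regions. The receptor-cluster regions thus recurred less often within each stage than regions did in general, as a description of these 4 lists.

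Regions held by both DP lists and no DN list were scarcer in receptor clusters than over all regions. The converse class was as frequent as over all regions with all peaks used. A region is DP-only when both DP lists and neither DN list hold it, DN-only when the reverse applies, and shared when it is present in all 4. DP-only regions numbered 13 (0.959%, against 7.44% over all regions). DN-only regions numbered 34 (2.51%, against 2.51% over all regions), a share equal to the background. Shared regions numbered 22 (1.62%, against 7.39%), and 59 further regions were held by other sets of 2 or 3 lists. Among the 47 DP-only and DN-only regions 27.7% were DP-only, against 74.8% over all regions. Within 100 kb of other genes 11.2% of regions were DP-only, 11.6% shared and 59.0% from a single list. The shares over all regions differ from these and include regions far from any gene. Receptor clusters were not compared with regions more than 100 kb from any gene alone. Regions are not replicates, and no test was made of these counts.

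These class counts rest on both lists of a stage, since with 1 list left a stage's class takes in its single-list regions. DP-only regions numbered 449 without DP 1 and 128 without DP 2, and DN-only regions 409 without DN 1 and 336 without DN 2, while 34 regions counted as shared without DP 1. The DP-only percent of DP-only and DN-only receptor regions stayed below that of all regions whichever list was left out, but by little without DP 1. It was 92.4 against 93.4% without DP 1, 73.6 against 83.4% without DP 2, 4.44 against 42.1% without DN 1, and 5.08 against 34.1% without DN 2. The top 50% of each list took peaks with a p-value below the list's median, which left out peaks tied at the median. It therefore held at most 50% of a list, and the part kept can differ between lists. It gave 239 receptor regions, of which 6 were DP-only (2.51%, against 14.7% over all regions). DN-only regions there numbered 19 (7.95%, against 3.92%) and shared ones 12. The DN-only percent was also above that of all regions without DN 1 (38.8 against 19.6%) and without DN 2 (34.3 against 18.8%). It was slightly below with lists of the shortest length (3.76 against 4.13%), without DP 1 (2.98 against 3.23%) and without DP 2 (5.00 against 5.37%). How the DN-only share stands to the background thus depended on the peaks used.

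**Figure D2:**
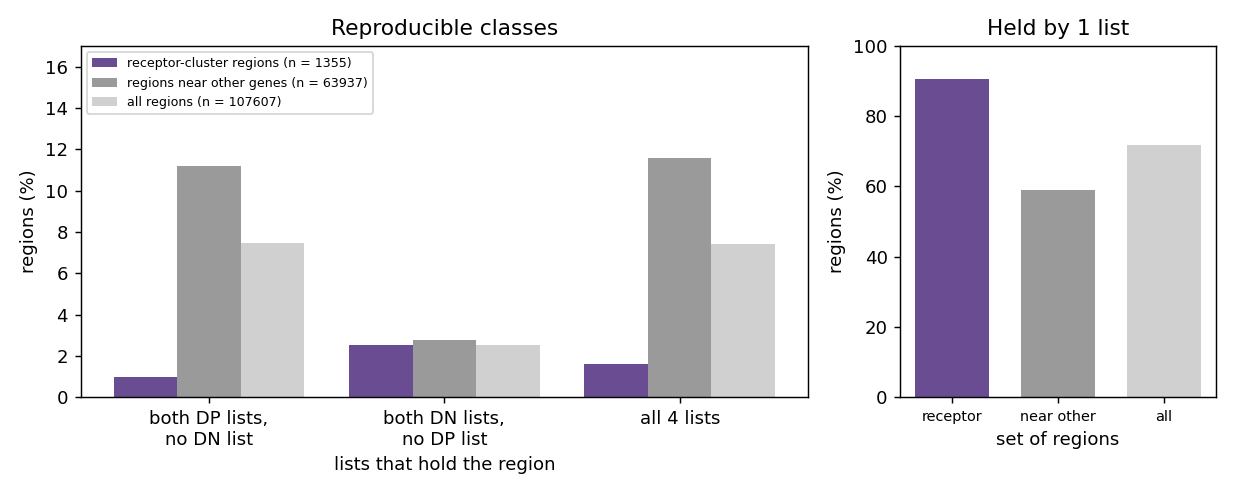
Bars give the percent of regions in each class for the 1355 receptor-cluster regions, the 63937 regions within 100 kb of other protein-coding genes and all 107607 regions; the right panel gives the percent held by a single list. Receptor-cluster regions are DP-only in 0.959% and shared in 1.62%, below both other sets, while the DN-only percent is 2.51 in receptor clusters and over all regions, and 90.6% come from 1 list.

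The 3 families differed in how many regions they held. Of 1109 Olfr genes 564 had at least 1 region, as did 84 of 229 Vmn1r genes and 82 of 123 Vmn2r genes. There were 962 Olfr, 140 Vmn1r and 253 Vmn2r regions, or 32.6, 14.5 and 21.1 regions per Mb of territory. Of each 10000 peaks, Olfr regions took 35.8 and 57.7 in the DP lists and 74.5 and 110 in the DN lists. Vmn1r regions took 2.77 and 7.96 in the DP lists and 13.1 and 13.9 in the DN lists. Vmn2r regions took 7.05 and 13.8 in the DP lists and 23.2 and 32.3 in the DN lists. In each family both DN lists lay above both DP lists (exact two-sided permutation p = 0.333 for each, the smallest possible). DP-only regions numbered 11 for Olfr (1.14%), 2 for Vmn1r (1.43%) and 0 for Vmn2r, each a smaller share than over all regions (7.44%). DN-only regions numbered 23 (2.39%), 4 (2.86%) and 7 (2.77%) in that order, all near the 2.51% over all regions.

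Single genes with many regions held mostly regions of 1 list. Olfr1408, on chromosome 1, had the most with 15 regions, of which 2 were DN-only and 13 came from 1 list. Its peaks numbered 1 and 5 in the DP lists and 4 and 11 in the DN lists. Vmn2r99, on chromosome 17, had 12 regions, all from single lists, with 1 peak in each DP list against 6 and 4 in DN 1 and DN 2. Vmn2r26, on chromosome 6, had 9 regions, of which 2 were DN-only, with 0 and 5 peaks in DP 1 and DP 2 and 4 in each DN list. Vmn1r26 led the Vmn1r family with 8 single-list regions, holding 2 and 1 peaks in DP 1 and DP 2 and 3 in each DN list. At the other extreme, 731 of the 1461 receptor genes had no region.

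At the genes themselves, peaks were rare in the lists of both stages. Among the 1461 receptor genes, 18 and 55 had a peak within 1000 bp of either gene end in the DP lists (1.23 and 3.76%) and 57 and 43 in the DN lists (3.90 and 2.94%). Over all 21517 protein-coding genes these shares were 48.2 and 51.5% in the DP lists and 38.6 and 27.1% in the DN lists. The groups overlapped for receptor genes, at 2.50 ± 1.79% in DP and 3.42 ± 0.678% in DN lists (SD, n = 2 each), and the difference of -0.924 percentage points had an exact two-sided permutation p of 0.667. It became 0.342 without DP 1. No peak of any list lay at an end of 1322 receptor genes. Gene ends held in both DP and no DN list numbered 3 among receptor genes, namely those of Olfr312, Olfr530 and Olfr769 (0.205%, against 10.2% over all genes). Those held in both DN and no DP list numbered 6, at Olfr1220, Olfr1258, Olfr420, Olfr592, Olfr658 and Olfr781 (0.411%, against 0.809%). A gene counts when a list has a peak near either end, so the lists of a stage need not share a region. The regions assigned to Olfr769, Olfr1220 and Olfr781 all came from single lists. Gene ends held in all 4 lists were those of 4 receptor genes, Olfr1033, Olfr433, Olfr9 and Vmn1r4 (0.274%, against 22.7%). The 4 regions assigned to Vmn1r4 overlapped Nt5c3 and lay 3.84 kb or more from the ends of Vmn1r4. The peaks counted at its end were thus in regions nearest to an end of another gene.

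The promoters of the receptor genes were poor in GC and almost never in a peak. RefSeq windows were matched by symbol for 1267 of the 1461 receptor genes, with 1272 windows, and were compared with 21044 windows of protein-coding genes in all. A peak overlapped 5 and 7 receptor windows in the DP lists and 12 and 9 in the DN lists. These are 0.393 and 0.550% in the DP lists and 0.943 and 0.708% in the DN lists. Over all windows the shares were 43.4 and 45.4% in the DP lists and 32.8 and 22.9% in the DN lists. Across the 4 lists 30 receptor windows (2.36%) lay in a peak, 26 of them of Olfr genes, 4 of Vmn2r genes and 0 of Vmn1r genes. Vmn2r29, printed above, stood apart among them in base composition, since the median GC content was 35.7% over all receptor windows and 36.2% over the 30 in a peak. Its region (chromosome 7, 7277951 to 7278600) overlaps the gene's start and lies 4.03 kb from an end of Clcn4, which encodes a chloride transporter. At Olfr781 the peaks of DN 1 and DN 2 touched different parts of the window and did not overlap each other, so they formed separate single-list regions.

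Receptor promoters differed from all promoters in median base composition, though the ranges overlapped. The median receptor window had 35.7% GC and 1 CpG dinucleotide, against 56.7% and 13 for all genes. Receptor windows without any CpG made up 31.0%, against 4.46% of all windows. Among windows under 40% GC, a peak of any list overlapped 25 of 985 receptor windows (2.54%) and 57 of 841 windows of other genes (6.78%). Low GC content and receptor identity overlap widely in these windows, and the part of each was not tested.

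Short motifs were counted in the windows on both strands. Matches to the motif of GATA factors (AGATAA) were present in 26.6% of receptor windows and 9.68% of all windows, and matches to LHX (TAATTA), the core of homeodomain sites, in 16.6 and 4.47%. TCF (CTTTGA) was found in 22.8% of receptor windows against 14.4% of all, RUNX (TGTGGT) in 19.3% against 14.8%, and the E-box (CANNTG) in 80.1% against 69.0%. Over the receptor windows of all families GC-rich motifs were rarer, with ETS (CCGGAA) in 1.34% against 18.9% and EBF (CCCNNGGG) in 4.17% against 15.8%. Some families differed from these pooled shares. Vmn2r windows had EBF in 19.5%, above all windows, and RUNX in 7.63%, below all windows. Vmn1r windows had TCF in 14.1%, slightly below all windows. The other motif shares named here lay on the pooled side of all windows in each family. The part of base composition in these shares was not tested. Among the 30 receptor windows in a peak the letters of RUNX were in 9 (30.0%), GATA in 8 (26.7%), TCF in 6 (20%), LHX in 2 (6.67%), ETS in 1, EBF in 1 and the E-box in 25 (83.3%). In the receptor windows in no peak the shares were 19.1% for RUNX, 26.6% for GATA, 22.9% for TCF, 16.8% for LHX and 80.0% for the E-box, and with 30 windows no difference is drawn from them. A match is a description of letters and not of binding, and some motifs overlap each other within a window.

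**Figure D3:**
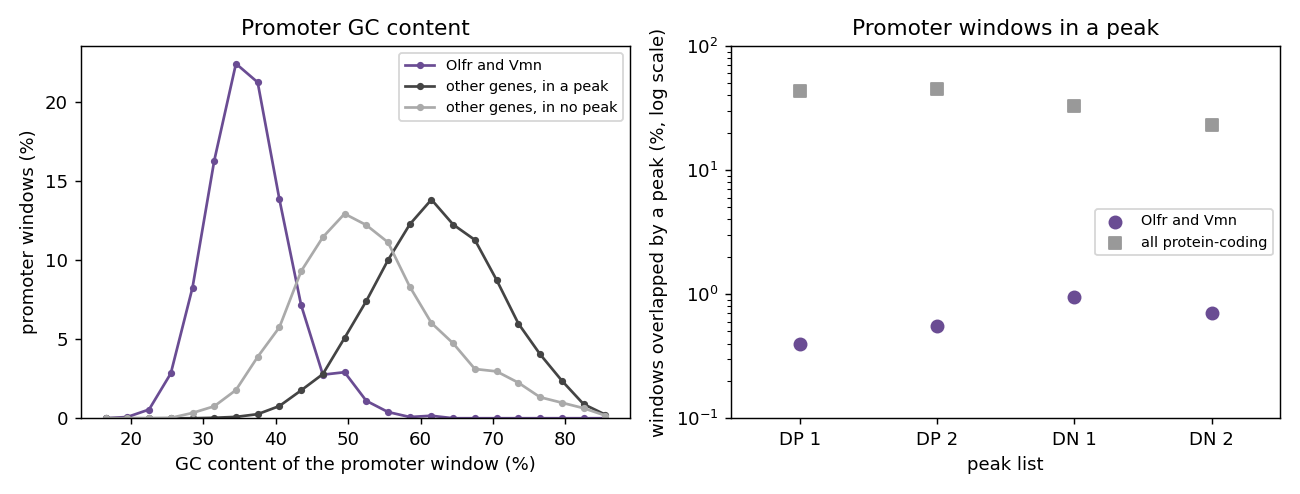
Left, lines give the percent of promoter windows by GC content for Olfr and Vmn genes, for other genes in a peak of any list and for other genes in no peak; right, points give the percent of promoter windows overlapped by a peak in each list on a log scale. Receptor windows centre on 35.7% GC, and 0.393 to 0.943% of them lay in a peak of a given list, against 22.9 to 45.4% of all windows.

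Away from the promoters, the regions were mostly intergenic. Their median distance to the nearest receptor gene end was 6.95 kb, and 138 (10.2%) lay within 1000 bp of it. Over all regions 11.4% lay that close to a protein-coding gene end, so this share is near the background. Of the receptor-cluster regions 1103 (81.4%) overlapped no annotated gene of any kind. Overlap with annotated genes was not counted over all regions, so it is not set against a background. A receptor gene span was overlapped by 159 regions and a receptor pseudogene by 29. Vmn2r genes, whose spans are longer because they have several coding exons, had 53 of their 253 regions inside the nearest gene, against 87 of 962 for Olfr and 3 of 140 for Vmn1r. Of the regions outside the nearest gene whose strand could be assigned, 548 lay upstream and 518 downstream, so neither side was clearly favoured. The regions nearest to the 100 kb limit lay 98.2 kb from Vmn1r26 and 98.6 kb from Olfr275 on the inside. On the outside they lay 102 and 118 kb from Vmn1r2.

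Regions outside the cluster bounds were closer in class shares to all regions of the series than those inside, on small counts. A cluster is a run of receptor genes with gaps of up to 1 Mb, which gave 68 clusters, 52 of them with a region. Of the 81 regions outside cluster bounds 7 were shared (8.64%) and 3 DP-only (3.70%). Of the 1274 regions inside, 15 were shared (1.18%) and 10 DP-only (0.785%), while the DN-only percent was 2.47 outside and 2.51 inside. Over all regions of the series 7.39% were shared and 7.44% DP-only. The median distance to the nearest other protein-coding gene was 30.7 kb for DP-only regions, 143 kb for DN-only regions, 98.4 kb for shared regions and 214 kb for single-list regions.

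The clusters differed in how they divided between stages. Peaks per 10000 in a cluster were higher in both DN than in both DP lists for 23 of the 52 clusters (44.2%). They were higher in both DP lists for 6 (11.5%). Of the 1 Mb windows of the genome that hold a peak, the shares were 35.7 and 27.7%. Clusters differ from these windows in length and in number of peaks, so the shares are only roughly comparable. The largest cluster, on chromosome 2 from Olfr987 to Olfr1274, had 217 regions at 222 genes. It held 6.30 and 12.1 peaks per 10000 in the DP lists and 18.3 and 24.5 in the DN lists. Of its 217 regions 1 was DP-only and 5 were DN-only. Over all regions of the series 7.44% were DP-only and 2.51% DN-only, and class counts this small do not set single clusters apart. The chromosome 17 cluster of Vmn2r90 to Vmn1r237, with 94 regions at 36 genes, held 3.78 and 3.98 in DP 1 and DP 2 and 10.3 in each DN list. These 2 clusters had both DN lists above both DP lists.

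The cluster on chromosome 10 from Olfr9 to Vmn2r87 had 89 regions and the most shared ones, 4, with 1 DP-only and 0 DN-only regions. Its peaks per 10000 were 4.28 and 5.68 in the DP lists and 8.25 and 12.1 in the DN lists. Around the beta-globin genes Hbb-bs and Hbb-bt, which sit inside an olfactory cluster on chromosome 7 (Olfr543 to Olfr692), there were 88 regions at 126 genes. The peaks per 10000 of that cluster overlapped between stages, at 4.79 and 6.25 in the DP lists and 6.19 and 9.96 in the DN lists. Of its 88 regions 0 were DP-only and 5 DN-only, again small counts. The next cluster of that chromosome (Olfr693 to Olfr519) also had 0 DP-only and 5 DN-only regions, of 84. It held 1.76 and 4.55 peaks per 10000 in the DP lists and 8.25 and 9.96 in the DN lists. Another chromosome 7 cluster (Olfr291 to Vmn2r79, 75 regions) held 1.26 and 3.84 in the DP lists and 5.93 and 9.96 in the DN lists.

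The clusters beside the Tcra and H2 loci, which encode T cell receptor alpha chains and histocompatibility molecules, were counted whatever their values. Their class counts are too small to set them apart from other clusters. The chromosome 14 cluster from Olfr722 to Olfr1507 runs into the Tcra V segments and had 33 regions, of which 0 were DP-only, 0 DN-only and 2 shared. It held 11 and 14 peaks in DP 1 and DP 2 and 12 in each DN list. Per 10000 peaks these are 2.77 and 1.99 in the DP lists and 3.09 and 3.62 in the DN lists, so both DN values were higher on that scale. Of these regions 3 lay in the Tcra locus, nearest to Olfr1510, Olfr1509 and Olfr1507. The one nearest to Olfr1510 (chromosome 14, 52427451 to 52428200) overlapped the V segment Trav1, with p-values in the authors' lists of 1e-12 in DP 1, 9.10e-06 in DP 2 and 0.000601 in DN 1, and it was absent from DN 2. The chromosome 17 cluster beside the H2 genes (Olfr90 to Olfr136) had 38 regions, with 6 and 17 peaks in DP 1 and DP 2 and 8 and 16 in DN 1 and DN 2, and 1 DN-only and 1 shared region. Per 10000 peaks the stages overlapped, at 1.51 and 2.42 in DP and 2.06 and 4.83 in DN lists. The 4 Olfr genes from Olfr55 to Olfr63 near other H2 genes had 0 regions. Olfr49, which lies alone beyond the other end of the Tcra locus, also had 0 regions.

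Some smaller clusters went the other way. They were picked out after their values were seen. The chromosome 7 cluster from Olfr522 to Olfr541 held 7 peaks in each DP list and 1 and 0 in the DN lists, which is 1.76 and 0.995 per 10000 in the DP lists and 0.258 and 0 in the DN lists. The chromosome 11 cluster from Olfr30 to Olfr225 had 4 and 6 peaks in DP lists and 1 and 0 in the DN lists. Over all of chromosome 11, with 83 receptor genes, there were 7 and 19 peaks in the DP lists and 3 and 2 in the DN lists. Chromosome 8, with 5 receptor genes, had 0 regions.

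**Figure D4:**
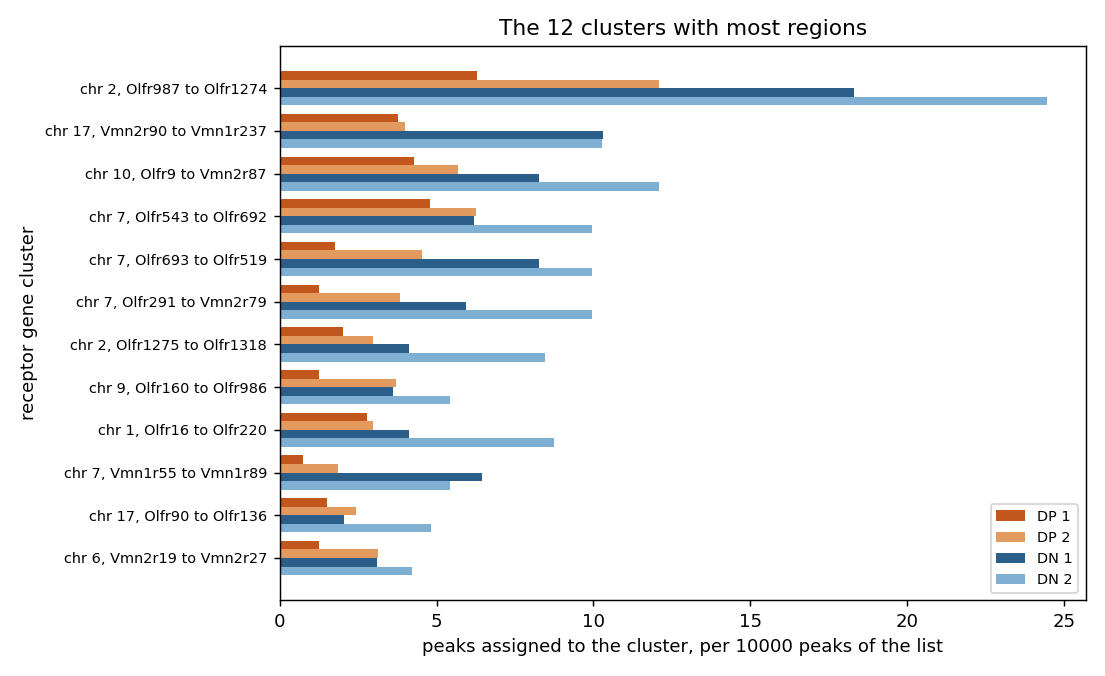
Bars give the peaks assigned to each of the 12 receptor gene clusters with most regions, per 10000 peaks of the list, for the 2 DP and the 2 DN lists. In 8 of the 12 clusters both DN lists exceed both DP lists; the chromosome 2 cluster from Olfr987 to Olfr1274 reaches 6.30 and 12.1 in DP and 18.3 and 24.5 in DN lists.

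The regions held by both lists of a stage are given next by the rank of their best peak in each list. A rank is the percentile of the peak by the authors' p-value, with 0 for the smallest p-value and ties averaged. DP-only receptor regions had a median mean rank of 58.5, against 36.9 for all DP-only regions of the series. DN-only receptor regions had 35.0, against 37.7 for all DN-only regions, and shared receptor regions 21.4, against 16.5. The DP-only receptor regions thus came from weaker peaks than DP-only regions in general, while the DN-only ones were of usual strength.

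The best ranked DP-only region lay 0.718 kb upstream of Olfr530 (chromosome 7, 140373901 to 140374750), with ranks of 37.1 in DP 1 and 9.12 in DP 2. A second one, 3.54 kb upstream of the same gene (140376801 to 140377500), had ranks of 28.4 and 53.0. These are the only DP-only regions in their cluster, next to the promoter printed above. On chromosome 11 a DP-only region lay 0.594 kb downstream of Olfr312 (58832301 to 58833050), with ranks of 30.9 and 40.1. The DP-only region near Vmn1r1 (chromosome 1, 182162751 to 182163450) ranked at 24.0 and 53.0 and lies 30.7 kb from Srp9, which encodes a subunit of the signal recognition particle. That near Olfr1368 (chromosome 13, 21158701 to 21159250) ranked at 46.2 and 33.1 and lies 20.5 kb from Trim27, a ubiquitin ligase gene. The region near Olfr288 (chromosome 15, 98181151 to 98181800) overlaps the lncRNA Gm33909 and ranked at 64.0 and 18.3. The remaining 4 of the 10 best ranked, near Olfr16, Olfr54, Olfr1255 and Olfr811, had ranks between 40.1 and 85.4.

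Of the best ranked DN-only regions, several lay inside receptor genes. The first (chromosome 7, 104646951 to 104647600) overlapped an end of Olfr658 and the pseudogene Usp17le-ps, with ranks of 7.46 in DN 1 and 4.97 in DN 2. A region 3.64 kb downstream of Vmn2r26 (chromosome 6, 124065351 to 124066000) ranked at 7.46 and 7.72. Those inside the spans of Olfr701 (chromosome 7, 106815651 to 106816250) and Olfr646 (chromosome 7, 104103701 to 104104650) ranked at 11.95 and 3.56 and at 8.12 and 13.7. Olfr646 lies in the cluster that holds the beta-globin genes. A region overlapping Olfr1258 (chromosome 2, 89920951 to 89922000) ranked at 17.3 and 6.94. Among the rest, the region inside Olfr1033 (chromosome 2, 86027051 to 86027750) ranked at 15.7 and 16.7, and those near Vmn2r79, Vmn1r15, Olfr514 and Olfr1441 had ranks between 11.9 and 29.8. Of the 34 DN-only regions 6 lay inside the nearest receptor gene, and 0 of 13 DP-only and 0 of 22 shared regions did, beside 143 of all 1355 (10.6%), so these small counts set no class apart.

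The 3 best ranked shared regions lay outside the cluster bounds. The best ranked (chromosome 10, 130541701 to 130542700) lay 44.8 kb upstream of Vmn2r87, just outside its cluster, with ranks of 3.19 in DP 1, 2.22 in DP 2, 1.77 in DN 1 and 2.24 in DN 2. The nearest other protein-coding gene, 179 kb away, is Tespa1, which acts in thymocyte selection. The next lay 74.0 kb from Olfr291 (chromosome 7, 84779051 to 84780000), with ranks of 15.3 and 6.62 in the DP lists and 1.77 and 7.72 in the DN lists. Next came a region near Vmn1r4 (chromosome 6, 56916101 to 56916900), which lies within the span of Nt5c3, a nucleotidase gene, whose nearer end is 7.51 kb away, against 7.41 kb for Vmn1r4. Its ranks were 12.3 and 9.12 in the DP lists and 8.86 and 20.1 in the DN lists. Inside clusters, a shared region overlapped an end of Olfr1033 (chromosome 2, 86020201 to 86020850), with ranks of 19.6 and 25.8 in the DP lists and 6.88 and 4.22 in the DN lists. Olfr1033 thus carried a shared and a DN-only region. Another overlapped Olfr9 (chromosome 10, 128990801 to 128991550) with ranks of 64.0 and 18.3 in the DP lists and 1.77 and 3.56 in the DN lists. A region 1.03 kb upstream of Olfr433 (chromosome 1, 174040501 to 174041300) lies 9.15 kb from Ifi205, an interferon-inducible gene, and ranked at 30.9 and 25.8 in the DP lists and 1.77 and 7.72 in the DN lists. Ranks come from lists of unequal length and were not compared between lists.

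**Figure D5:**
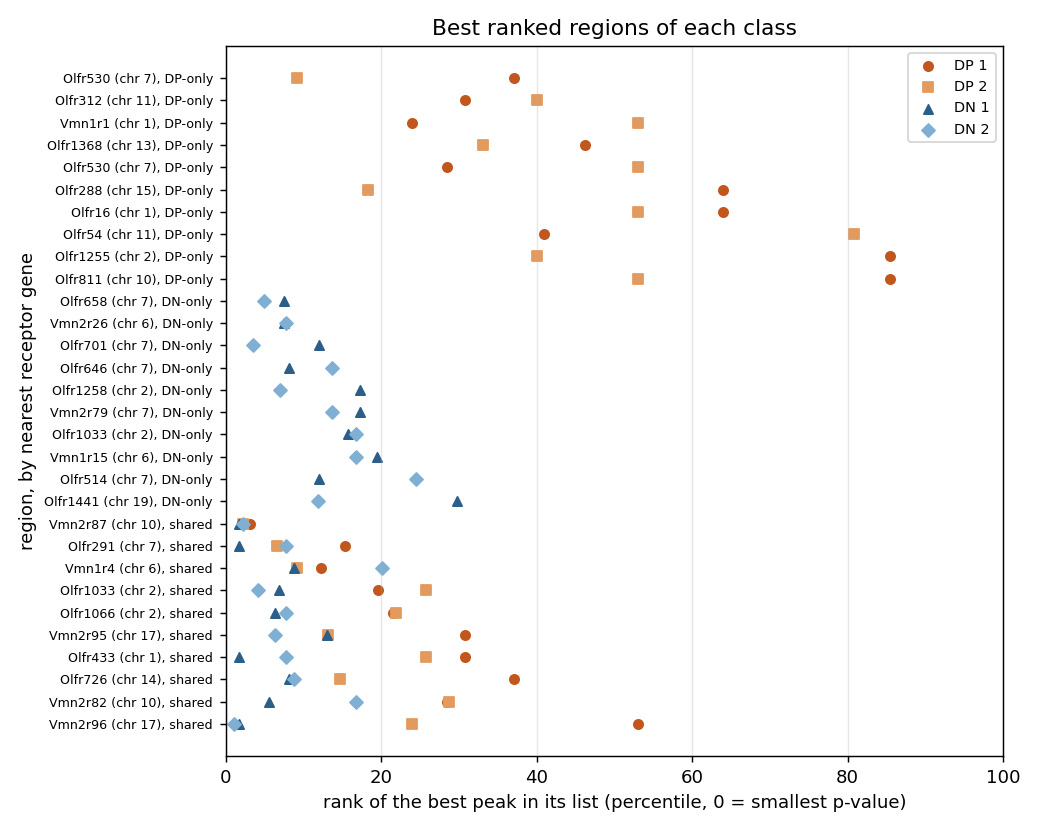
Points give the rank percentile of the best peak in each list that holds the region, for the 10 best ranked DP-only, DN-only and shared receptor-cluster regions (0 is the smallest p-value of a list). The 10 DP-only regions, of 13 in all, rank between 9.12 and 85.4 in the DP lists, and the 10 DN-only regions, of 34 in all, between 3.56 and 29.8 in the DN lists, where the median mean rank of all 34 is 35.0.

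The best ranked single-list regions reached the ranks of some recurrent ones. In DN 1 the best 2 lay near Vmn2r79 (chromosome 7, 87110501 to 87111050) and Olfr963 (chromosome 9, 39679201 to 39679800), each with a rank of 10.3. The DN 1 region near Vmn2r79 lies beside the DN-only region near the same gene. In DN 2 those near Olfr676 and Vmn2r6 ranked at 16.7 and 20.1. In DP 1 those near Olfr1513 and Olfr584 ranked at 37.1 and 46.2, and in DP 2 those near Olfr824 and Olfr1370 both ranked at 21.9.

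Other tandem families with tissue-restricted expression also had few DP-only and many single-list regions, on far fewer regions. Bitter taste receptors (Tas2r, 64 regions), keratin-associated proteins (Krtap, 60) and beta-defensins (Defb, 37) had 0 DP-only regions each. Their DN-only regions numbered 3 (4.69%), 3 (5.00%) and 1 (2.70%), against 2.51% in the receptor clusters and over all regions. Single-list regions made up 87.5% for Tas2r, 90% for Krtap and 91.9% for Defb, against 90.6% for the receptor clusters. Of each 10000 peaks, Krtap regions took 0.504 and 4.26 in the DP lists and 5.16 and 5.74 in the DN lists. Defb regions took 1.51 and 1.85 in the DP lists and 2.84 and 4.23 in the DN lists. Tas2r regions overlapped between stages, at 2.27 and 5.12 in the DP lists and 3.87 and 6.34 in the DN lists. The scarcity of DP-only regions is therefore not shown to be particular to olfactory and vomeronasal receptors.

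Genes that serve olfactory signalling and receptor choice, which are not receptor genes themselves, were close to other genes in their class shares. Of 24 such genes 18 had a region. Of their 112 regions 15 were DP-only (13.4%, in 8 genes), 9 were shared and 0 were DN-only. Near all genes other than receptors 11.2% of regions were DP-only and 2.78% DN-only, so these counts are near the background. Their peaks numbered 50 and 96 in the DP lists and 38 and 24 in the DN lists. Reep1, a receptor-trafficking gene, had 4 DP-only regions, while Ldb1, a cofactor of LIM-domain transcription factors, and Gnai2, a G protein alpha subunit that couples Vmn1r receptors, had 3 each. Gnai2 had 8 and 6 peaks in DP lists and 2 and 0 in the DN lists. Several of these genes are also used outside the nose. Genes best known from olfactory and vomeronasal neurons were mixed. Rtp1, Rtp2, Stoml3, Gng13 and Trpc2 had 0 regions, and Omp, the olfactory marker protein, and Cnga2, a subunit of the olfactory cation channel, had 1 single-list region each. The other channel subunits had more, with 4 regions at Cngb1 (1 DP-only, 2 shared) and 2 at Cnga4 (1 DP-only), whose gene end held a peak in all 4 lists. Gnal, the olfactory G protein alpha subunit, had 3 regions, 1 of them shared, and Ano2, a chloride channel gene, had 24, of which 23 came from single lists. Adcy3, the olfactory adenylyl cyclase, had a peak at a gene end in all 4 lists.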

How the data were processed

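ATAC-seq peak lists of 2 DP and 2 DN thymocyte samples were used, grouped and numbered by their titles; the labels describe nucleosome-free chromatin. The submitters' processing notes list the build mm10 and, among tools, Bowtie2 and Picard, with no version or role. The authors deposited 1 list per sample with a p-value for each peak, in 39718, 70385, 38808 and 33131 rows for DP 1, DP 2, DN 1 and DN 2. The lists carry the name of the peak caller PeakDEck. For its settings, for read filters and for any shift of reads, the wording "not given in the sources used here" applies. The p-values gave each peak a rank and a cutoff inside its own list. Ranks of lists of unequal length show no change between stages, and without counts no interval was made.

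Peaks on chromosomes 1 to 19 and X were merged when sharing 1 bp. Genes came from RefSeq (GRCm38.p6), without rows on unplaced scaffolds. That left 21517 protein-coding genes, 1461 of them Olfr or Vmn. Coordinates count from 1. Groups were compared by exact two-sided permutation tests over samples, and lists of regions by counts beside the same over all regions. Named items come from the 10 best ranked regions of each class, the 2 best single-list regions per list, the clusters with most regions, with DN-only regions or beside Tcra, beta-globin and H2 genes, and the genes with most regions or with gene-end peaks. Only part of these are named. The members, lists and rules were chosen with earlier results of these data known. Region sequences were not used here, as no genome was at hand. Region classes, nearest genes and the permutation test were tested on simulated lists. Alternatives were the top 50% of each list, lists of the shortest length, merging within 250 bp, a 50% cover, 10 kb in place of 100 kb, leaving out antigen receptor loci, cluster bounds or single lists, narrower and wider gene ends, raw or base scales and the replicate number as a block. Random ties at the shortest length were added after seeing the data. The software was scipy 1.17.1, numpy 2.4.6, pandas 2.3.3 and matplotlib 3.10.9 under Python 3.11.15.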

Additional observations from a re-analysis of the deposited data

How the results depend on the processing

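The DP minus DN difference in receptor-cluster peaks per 10000 peaks kept its sign in each setting run, from -92.4 with lists of the shortest length (-90.4 with random ties) to -42.3 with gene ends within 10 kb, and from -93.3 to -48.3 when 1 list was left out. It was -71.1 without antigen receptor loci, -68.3 inside clusters only, -66.6 on peak bases and -103 as raw peaks per list. With the replicate number as a block it was -70.8 (exact paired permutation p = 0.5, the smallest possible). The gene-end difference of -0.924 percentage points ran from -2.19 to 0.342 when 1 list was left out, turning positive without DP 1, and was -0.924 with the block (exact paired permutation p = 1). Same-numbered lists deviated together only weakly (correlation 0.255 over 16622 genes), and the labels give the shared numbers no meaning.

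DN-only regions numbered 19 in the top 50% of each list, and 37 to 409 over lists left out one at a time (34 with all). DP-only regions numbered 6 in the top 50%, 7 at the shortest list length, 6 there with random ties, and 18 to 449 over lists left out. Shared regions were 12 in the top 50% and 10 within 10 kb of a gene end, and 25 to 34 over lists left out. The DP-only percent of DP-only and DN-only regions ran from 4.44 to 92.4 over lists left out. The single-list share was 70.3% in the top 50%, 88.4% with lists of the shortest length, 88.8% with random ties and 90.4 to 92.5% with a list left out. The named DP-only and DN-only regions had no peak in the other stage, and most settings only removed peaks. They could therefore hardly turn from one stage to the other, and none did. Where still held, named DP-only regions changed in the share of DP lists minus the share of DN lists in 13 results and kept it in 105. Named DN-only regions kept it in 120 results. Depth is unknown, so an absent peak is not shown to be closed chromatin.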
